A study of Arabidopsis thaliana with 16 samples.

Results

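The genes described are 45 nuclear genes for proteins of the photosynthetic apparatus in *Arabidopsis thaliana* seeds. They are the genes listed for the antennae of photosystem I and photosystem II, for the nuclear subunits of both photosystems and for the small subunit of Rubisco, looked up by locus ID in the expression table. All 45 were among its 27206 genes, and all 45 passed the filter on low values that left 20051 genes for testing. The list is defined by the function of the encoded proteins.

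The embryo of Arabidopsis turns green while it grows inside the seed coat, and its plastids become photosynthetic before the seed dries. In a photosystem, a core of plastid-encoded proteins carries out charge separation, and nuclear genes supply further subunits and the chlorophyll-binding antenna proteins that feed light energy to the core. Rubisco, the enzyme that fixes carbon dioxide, likewise joins a plastid-encoded large subunit to a nuclear small subunit.

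RNA was sequenced from seeds at 6 days after pollination (DAP) of 3 crosses, with 2 biological replicates each, and every cross had the same male-sterile *pi-1* mother in the Landsberg *erecta* (Ler) background. The pollen donors were *phe1 phe2 osd1*, *osd1* and wild type (wt), all described as Columbia (Col), so the mutations entered the seeds through the pollen alone. Plants with *osd1* skip the second meiotic division and give diploid pollen, which makes the seeds of both *osd1* crosses triploid with an extra paternal genome, while wt seeds are diploid. In *phe1 phe2 osd1*, the gene for the MADS-box factor PHERES1 (PHE1) carries a CRISPR/Cas9 deletion that leads to an early stop and its paralog *PHE2* a T-DNA insertion. Both triploid crosses carry *osd1*, so *phe1 phe2 osd1* against *osd1* compares the *phe* mutations within triploid seeds. Values are RPKM, read numbers scaled to the length of the gene and to the mapped reads of the library, from whole seeds that hold embryo, endosperm and seed coat.

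The libraries held an estimated 16.2 to 18.2 M reads, and the correlation of log2 values between replicates was 0.961 to 0.989. *PHE1* had 49.0 and 49.1 RPKM in *phe1 phe2 osd1* seeds, 200 and 169 RPKM in *osd1* seeds and 2.92 and 3.10 RPKM in wt seeds. *PHE2* had 37.8 and 32.5 RPKM in *phe1 phe2 osd1* seeds, 81.8 and 90.1 RPKM in *osd1* seeds and 3.08 and 2.98 RPKM in wt seeds. Both genes were lowest in wt and intermediate in *phe1 phe2 osd1*, whose seeds also carry the maternal alleles without the mutations. The study describes *PHE1* as imprinted and expressed from the paternal allele. RPKM do not separate transcripts of the maternal alleles from those of the mutant paternal alleles, and their shares were not tested. *OSD1* had 0.861 and 1.03 RPKM in *phe1 phe2 osd1* seeds, 1.56 and 1.41 RPKM in *osd1* seeds and 7.19 and 6.82 RPKM in wt seeds.

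In triploid seeds many photosynthesis genes were lower than in diploid seeds, with the lowest class median in the antenna of photosystem II. The small-subunit genes *RBCS1B*, *RBCS2B* and *RBCS3B* were higher in *osd1* seeds, and of these only *RBCS3B* was called in *phe1 phe2 osd1* seeds. Summed over the 45 genes, RPKM was 8816 ± 743 in *phe1 phe2 osd1* seeds, 9915 ± 2014 in *osd1* seeds and 16322 ± 277 in wt seeds (SD, n = 2 libraries each). The lowest wt library had a sum of 16126 RPKM, and the highest triploid library, *osd1* replicate 1, had 11339 RPKM. In *osd1* vs. wt, limma called 23 of the 45 genes lower and 3 higher at a Benjamini-Hochberg adjusted p under 0.05, where 13.4% of all genes tested were called lower and 12.6% higher. The median log2 fold change of the 45 genes was −0.65, which is 1.57-fold lower, against 0.01 over all genes tested. In bulk seeds, fewer green cells and less RNA per cell cannot be told apart.

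In *phe1 phe2 osd1* vs. wt, limma called 29 of the 45 genes lower and 1 higher, where 12.5% of all genes tested were called lower and 12.1% higher. The median log2 fold change was −0.78, against 0.01 over all genes tested. Both comparisons share the wt libraries and are therefore not independent. The libraries of *osd1* all lay below those of wt for 36 genes and all above for 4, where 33.5% and 34.1% of all genes tested did so. For *phe1 phe2 osd1* against wt these numbers were 38 and 4, where 34.5% and 34.8% of all genes tested did so. Only *LHCA5*, *LHCB1.4* and *PSBQA* overlapped between crosses in both comparisons, and *LHCB3* and *PSAD2* in *osd1* vs. wt.

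The counts of calls depended on single libraries, while the median stayed below 0 without any 1 of them. Without wt replicate 1, limma called 1 gene lower in *osd1* vs. wt and 2 in *phe1 phe2 osd1* vs. wt, and without wt replicate 2 it called 3 and 3. The share of all genes tested that was called lower also dropped, to 3.75% and 2.51% without wt replicate 1 and to 5.23% and 3.96% without wt replicate 2. Without *phe1 phe2 osd1* replicate 1 or 2, 14 and 10 genes were called lower in *phe1 phe2 osd1* vs. wt, where 7.5% and 6.57% of all genes tested were. Leaving out any 1 library left the median log2 fold change between −0.84 and −0.47 in *osd1* vs. wt and between −0.83 and −0.76 in *phe1 phe2 osd1* vs. wt. The rank product, the test the study used, ranks genes within each of the 4 pairs of replicates and takes no account of the spread. At an unadjusted one-sided p under 0.05 it called 2 of the 45 genes lower and 3 higher in *osd1* vs. wt, where 8.63% and 8.54% of all genes tested were called. In *phe1 phe2 osd1* vs. wt it called 8 lower and 0 higher, where 9.06% and 8.51% of all genes tested were called.

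**Figure D1:**
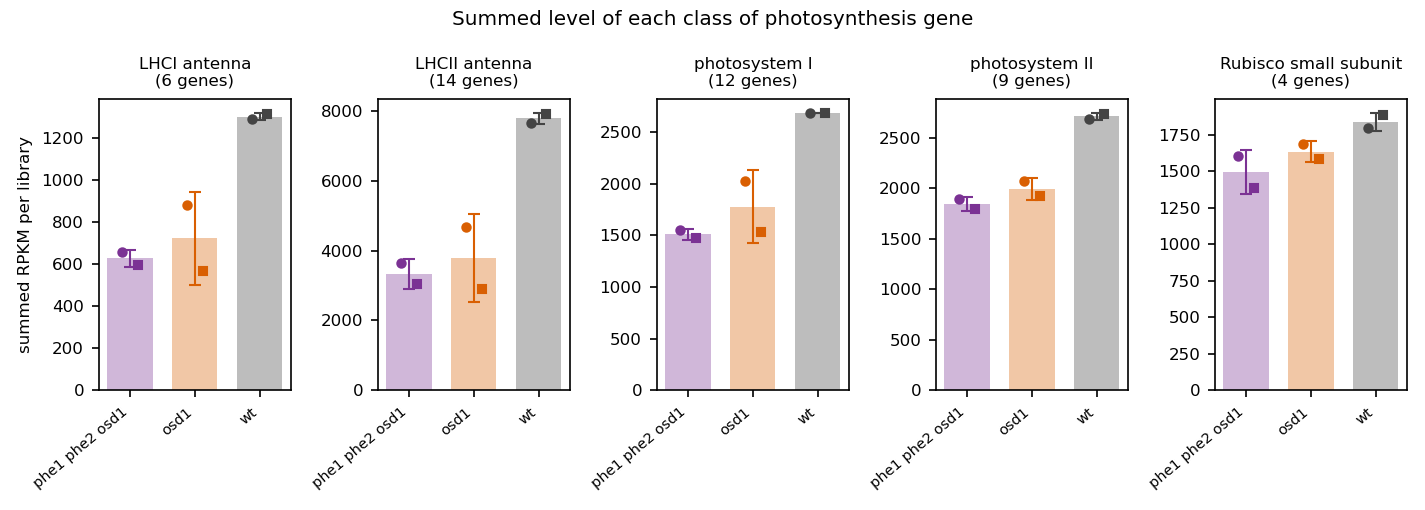
Summed RPKM of each class of photosynthesis gene per library (vertical axis from 0) in *phe1 phe2 osd1*, *osd1* and wt seeds. Bars are means, error bars SD of 2 libraries, circles replicate 1 and squares replicate 2, and the LHCII antenna sum was 3337 ± 426 in *phe1 phe2 osd1*, 3784 ± 1260 in *osd1* and 7786 ± 164 in wt.

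The antenna of photosystem II, light-harvesting complex II (LHCII), held the strongest falls. Its trimers are built from LHCB1, LHCB2 and LHCB3 proteins, and the minor antenna proteins LHCB4, LHCB5 and LHCB6 link the trimers to the core. Of its 14 genes, limma called 10 lower and 0 higher in *osd1* vs. wt, beside 13.4% and 12.6% of all genes tested. In *phe1 phe2 osd1* vs. wt it called 11 lower and 0 higher, beside 12.5% and 12.1%. The median log2 fold changes were −1.05 and −1.09, each more than 2-fold lower.

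LHCB1 is encoded by 5 similar genes, 3 of them side by side on chromosome 1 and a pair on chromosome 2. Because the authors' mapping reported 1 place for each read, reads from identical stretches can be assigned to the wrong copy. No stretch of 150 bases, the read length, was shared exactly between LHCB1 transcripts, and the coding sequences of *LHCB1.1*, *LHCB1.2* and *LHCB1.3* were 95.6 to 96.4% identical. Against these, *LHCB1.4* was 86.8 to 88.2% and *LHCB1.5* 89.3 to 90.4% identical, and *LHCB1.4* and *LHCB1.5* were 91.4% identical to each other. The 60 coding bases with the most differences among the 5 copies, at 15 positions, are printed to show how far copies can be told apart. They are read on the coding strand of TAIR10.1 from base 208 of the coding sequence in *LHCB1.1*, *LHCB1.2* and *LHCB1.3*, from 205 in *LHCB1.4* and from 202 in *LHCB1.5*, and capitals mark the positions at which the copies differ.
LHCB1.1: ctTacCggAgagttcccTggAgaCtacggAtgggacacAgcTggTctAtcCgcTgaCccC
LHCB1.2: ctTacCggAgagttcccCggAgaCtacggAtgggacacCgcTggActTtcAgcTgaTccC
LHCB1.3: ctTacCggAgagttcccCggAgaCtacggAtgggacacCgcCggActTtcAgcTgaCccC
LHCB1.4: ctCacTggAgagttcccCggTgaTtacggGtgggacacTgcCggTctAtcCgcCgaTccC
LHCB1.5: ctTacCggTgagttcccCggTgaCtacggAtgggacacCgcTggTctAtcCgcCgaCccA

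*LHCB1.3* (AT1G29930, chr1:10477885-10479114, forward strand), the most abundant of the 45 genes, had 1481 and 1134 RPKM in *phe1 phe2 osd1* seeds, 1621 and 1069 RPKM in *osd1* seeds and 2846 and 2806 RPKM in wt seeds. It fell 2.15-fold in *osd1* vs. wt (log2 fold change −1.10, SE 0.25, limma adjusted p = 0.0229). The wt libraries agreed closely, and all 4 triploid libraries lay well below them.

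*LHCB1.1* (AT1G29920) showed the largest fall among the 45 genes in *osd1* vs. wt. It had 222 and 184 RPKM in *phe1 phe2 osd1* seeds, 376 and 169 RPKM in *osd1* seeds and 816 and 975 RPKM in wt seeds. Against wt, its log2 fold changes were −1.82 in *osd1* (SE 0.36, limma adjusted p = 0.0149) and −2.14 in *phe1 phe2 osd1* (SE 0.36, adjusted p = 0.00915). The highest triploid library was *osd1* replicate 1, still less than the lower wt library. *LHCB1.2* (AT1G29910) had 204 and 154 RPKM in *phe1 phe2 osd1* seeds, 296 and 132 RPKM in *osd1* seeds and 575 and 587 RPKM in wt seeds. *LHCB1.5* (AT2G34420) had 411 and 338 RPKM in *phe1 phe2 osd1* seeds, 621 and 337 RPKM in *osd1* seeds and 925 and 972 RPKM in wt seeds. Both were lower in both triploid crosses by limma, with no overlap between crosses.

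*LHCB1.4* (AT2G34430) did not follow the other copies. It had 27.4 and 1.36 RPKM in *phe1 phe2 osd1* seeds, 95.3 and 1.67 RPKM in *osd1* seeds and 7.24 and 5.95 RPKM in wt seeds. Replicate 1 of each triploid cross was far above wt and replicate 2 of each below it, so the crosses overlapped and no difference could be called (log2 fold change 1.03, SE 1.93, limma adjusted p = 0.73 in *osd1* vs. wt). Without *osd1* replicate 1 the log2 fold change was −1.70, and without *osd1* replicate 2 it was 3.76. The lowest of these values stood for an estimated 32 reads. Summed over the 5 copies, LHCB1 reached 2346 and 1812 RPKM in *phe1 phe2 osd1* seeds, 3009 and 1709 RPKM in *osd1* seeds and 5169 and 5346 RPKM in wt seeds. The log2 ratio of the summed means was −1.16 in *osd1* vs. wt and −1.34 in *phe1 phe2 osd1* vs. wt, and −1.18 and −1.35 without *LHCB1.4*.

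**Figure D2:**
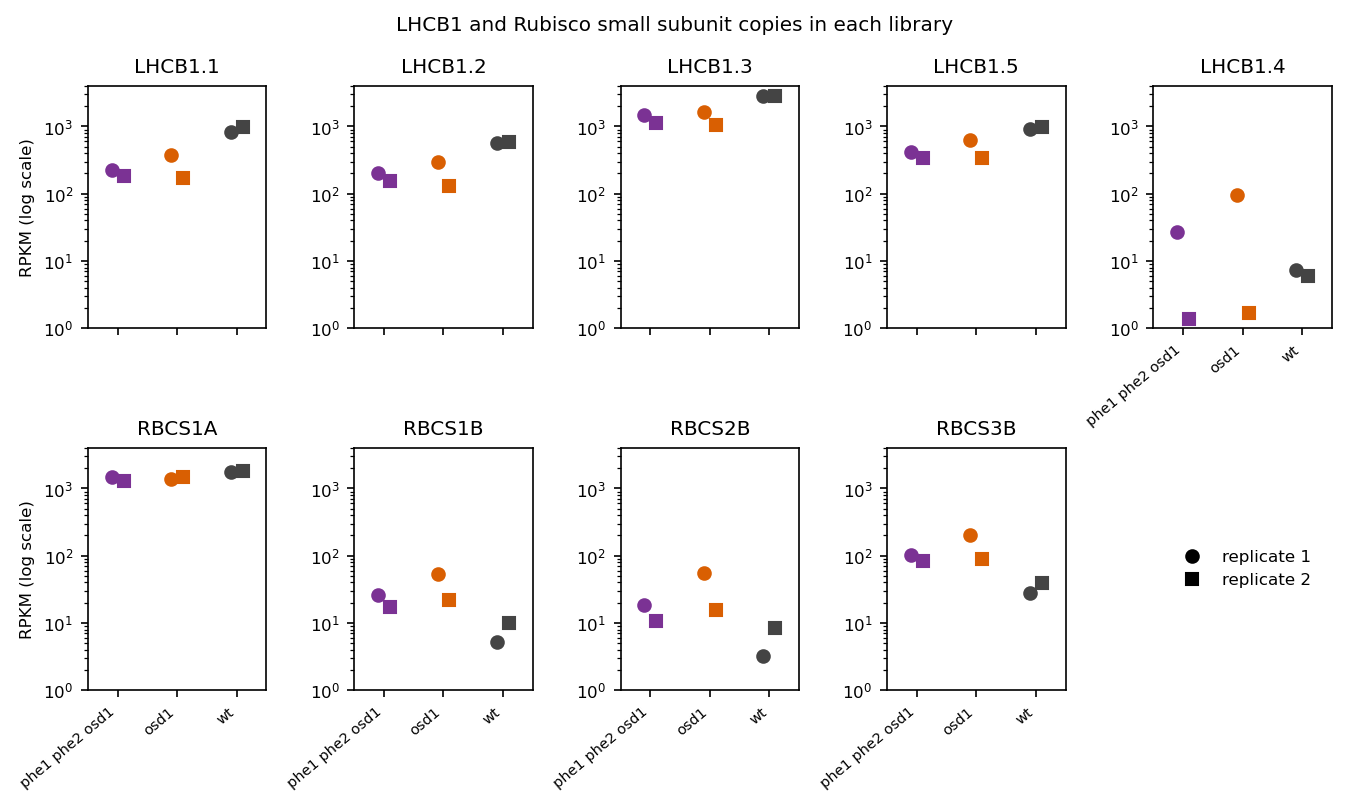
RPKM on a log scale of the 5 LHCB1 copies (top) and the 4 Rubisco small-subunit copies (bottom) in *phe1 phe2 osd1*, *osd1* and wt seeds, with circles for replicate 1 and squares for replicate 2. *LHCB1.1*, *LHCB1.2*, *LHCB1.3* and *LHCB1.5* are highest in both wt libraries and *RBCS1B*, *RBCS2B* and *RBCS3B* lowest there, while *LHCB1.4* separates by replicate in the triploid crosses.

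The LHCB2 copies were all lower in level in the triploid seeds, by unequal amounts. *LHCB2.1* (AT2G05100) had 150 and 133 RPKM in *phe1 phe2 osd1* seeds, 216 and 136 RPKM in *osd1* seeds and 243 RPKM in both wt libraries. *LHCB2.2* (AT2G05070) had 153 and 118 RPKM in *phe1 phe2 osd1* seeds, 233 and 109 RPKM in *osd1* seeds and 374 and 395 RPKM in wt seeds. *LHCB2.3* (AT3G27690) had 8.82 and 6.36 RPKM in *phe1 phe2 osd1* seeds, 23.4 and 5.84 RPKM in *osd1* seeds and 26.7 and 42.2 RPKM in wt seeds. In all LHCB2 copies every triploid library lay below wt, but limma called only *LHCB2.2* in *osd1* vs. wt (adjusted p = 0.0418), and *LHCB2.1* and *LHCB2.2* in *phe1 phe2 osd1* vs. wt (adjusted p = 0.0478 and 0.0249). The summed LHCB2 level had a log2 ratio of −0.87 in *osd1* vs. wt and −1.22 in *phe1 phe2 osd1* vs. wt.

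The minor antenna genes were all called lower in both triploid crosses by limma. *LHCB5* had 234 and 234 RPKM in *phe1 phe2 osd1* seeds, 259 and 211 RPKM in *osd1* seeds and 483 and 469 RPKM in wt seeds, a log2 fold change of −1.02 in both comparisons (SE 0.13, limma adjusted p = 0.00321 and 0.00366). *LHCB6* had 234 and 230 RPKM in *phe1 phe2 osd1* seeds, 266 and 211 RPKM in *osd1* seeds and 490 and 488 RPKM in wt seeds. *LHCB4.1*, *LHCB4.2* and *LHCB4.3* were also lower in both triploid crosses, with log2 fold changes of −0.74, −0.80 and −1.35 in *osd1* vs. wt. *LHCB3*, a subunit of the trimers, was not called, with log2 fold changes of −0.23 in *osd1* vs. wt and −0.57 in *phe1 phe2 osd1* vs. wt (limma adjusted p = 0.466 and 0.096).

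The antenna of photosystem I (LHCI) is a belt of the abundant proteins LHCA1 to LHCA4, and *LHCA5* and *LHCA6* encode scarce relatives that take part in joining photosystem I to the NDH complex. *LHCA4* (AT3G47470) had 176 and 152 RPKM in *phe1 phe2 osd1* seeds, 238 and 146 RPKM in *osd1* seeds and 404 and 421 RPKM in wt seeds. It showed the largest fall of the class, by 1.14 on the log2 scale (SE 0.23, limma adjusted p = 0.016 in *osd1* vs. wt). *LHCA1* (AT3G54890) had 174 and 158 RPKM in *phe1 phe2 osd1* seeds, 231 and 147 RPKM in *osd1* seeds and 369 and 374 RPKM in wt seeds. *LHCA1*, *LHCA3* and *LHCA4* were lower in both triploid crosses by limma, and *LHCA2* missed the threshold (adjusted p = 0.113 and 0.0548). *LHCA6* (AT1G19150) had 6.61 and 7.09 RPKM in *phe1 phe2 osd1* seeds, 9.16 and 6.36 RPKM in *osd1* seeds and 5.06 and 6.19 RPKM in wt seeds. The triploid values of *LHCA6* lay above wt, but the difference missed the threshold (log2 fold change 0.42, SE 0.22, adjusted p = 0.219 in *osd1* vs. wt). *LHCA5*, at 4.91 to 8.54 RPKM in all libraries, overlapped between crosses.

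Photosystem I subunits had a median log2 fold change of −0.64 in *osd1* vs. wt, the same as the LHCI antenna at −0.64. Of 12 genes, limma called 6 lower and 0 higher in *osd1* vs. wt, beside 13.4% and 12.6% of all genes tested. In *phe1 phe2 osd1* vs. wt it called 9 lower and 0 higher, beside 12.5% and 12.1%. All 12 log2 fold changes were between −0.79 and −0.20 in *osd1* vs. wt. *PSAF* (AT1G31330), a subunit of the plastocyanin docking side, had 213 and 172 RPKM in *phe1 phe2 osd1* seeds, 278 and 181 RPKM in *osd1* seeds and 367 and 363 RPKM in wt seeds. *PSAF* was called in *phe1 phe2 osd1* vs. wt (limma adjusted p = 0.0286) and missed the threshold in *osd1* vs. wt (adjusted p = 0.0644), where the *osd1* libraries differed most. *PSAD1* (AT4G02770), which with *PSAD2* encodes a stromal subunit of the ferredoxin docking site, had 182 and 183 RPKM in *phe1 phe2 osd1* seeds, 253 and 201 RPKM in *osd1* seeds and 360 and 389 RPKM in wt seeds. It was lower in both triploid crosses by limma (adjusted p = 0.0137 and 0.00434), whereas *PSAD2*, the less abundant copy, was not called in either (adjusted p = 0.431 and 0.195).

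*PSAO* (AT1G08380), a small subunit near the LHCII docking side, had the lowest log2 fold change of the class in *osd1* vs. wt and was not called. It had 110 and 101 RPKM in *phe1 phe2 osd1* seeds, 141 and 83.1 RPKM in *osd1* seeds and 192 and 184 RPKM in wt seeds (log2 fold change −0.79, SE 0.24, limma adjusted p = 0.0574 in *osd1* vs. wt). *PSAN* (AT5G64040), a lumenal subunit, moved least, with 110 and 91.0 RPKM in *phe1 phe2 osd1* seeds, 133 and 108 RPKM in *osd1* seeds and 137 and 138 RPKM in wt seeds. Both lay below wt in every triploid library. *PSAG*, *PSAH1*, *PSAH2*, *PSAK* and *PSAE2* were lower in both triploid crosses by limma, and *PSAE1* and *PSAL* in *phe1 phe2 osd1* vs. wt.

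Among photosystem II subunits, the lowest log2 fold changes were in copies of the oxygen-evolving complex, *PSBO2* and *PSBQ2*. PSBO, PSBP and PSBQ are the lumenal proteins that stabilise the manganese cluster, and PSBO and PSBQ are each encoded by a pair of genes. *PSBO2* (AT3G50820) had 36.9 and 42.5 RPKM in *phe1 phe2 osd1* seeds, 52.0 and 30.0 RPKM in *osd1* seeds and 105 and 95.8 RPKM in wt seeds (log2 fold change −1.33, SE 0.25, limma adjusted p = 0.013 in *osd1* vs. wt). *PSBO1*, the more abundant copy at 315 to 451 RPKM, had a log2 fold change of −0.38 in *osd1* vs. wt (adjusted p = 0.0755) and of −0.45 in *phe1 phe2 osd1* vs. wt (adjusted p = 0.0487).

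In the PSBQ pair, limma called 1 copy in both comparisons and the other in neither. *PSBQ2* (AT4G05180) had 71.4 and 69.8 RPKM in *phe1 phe2 osd1* seeds, 81.8 and 78.9 RPKM in *osd1* seeds and 197 and 198 RPKM in wt seeds, and it had the lowest adjusted p of the 45 genes in both comparisons (limma adjusted p = 0.000583 and 0.000498). *PSBQA* (AT4G21280) had 155 and 143 RPKM in *phe1 phe2 osd1* seeds, 172 and 136 RPKM in *osd1* seeds and 141 and 150 RPKM in wt seeds. *PSBQ2* was far below wt in every triploid library (log2 fold change −1.29, SE 0.10 in *osd1* vs. wt), whereas *PSBQA* overlapped between all crosses (log2 fold change 0.07, SE 0.14, limma adjusted p = 0.755 in *osd1* vs. wt). The difference between the paralogs was not tested.

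*PSBR* (AT1G79040), a subunit of photosystem II and the most abundant of this class, had 382 and 385 RPKM in *phe1 phe2 osd1* seeds, 401 and 398 RPKM in *osd1* seeds and 541 and 599 RPKM in wt seeds. It fell with a small spread (log2 fold change −0.51, SE 0.11, limma adjusted p = 0.0228 in *osd1* vs. wt). *PSBX* (AT2G06520), a small membrane subunit, had 349 and 342 RPKM in *phe1 phe2 osd1* seeds, 349 and 385 RPKM in *osd1* seeds and 433 and 445 RPKM in wt seeds and was not called in either comparison (limma adjusted p = 0.142 and 0.0741). Of the 9 photosystem II genes, limma called 4 lower and 0 higher in *osd1* vs. wt, beside 13.4% and 12.6% of all genes tested. In *phe1 phe2 osd1* vs. wt it called 6 lower and 0 higher, beside 12.5% and 12.1%.

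**Figure D3:**
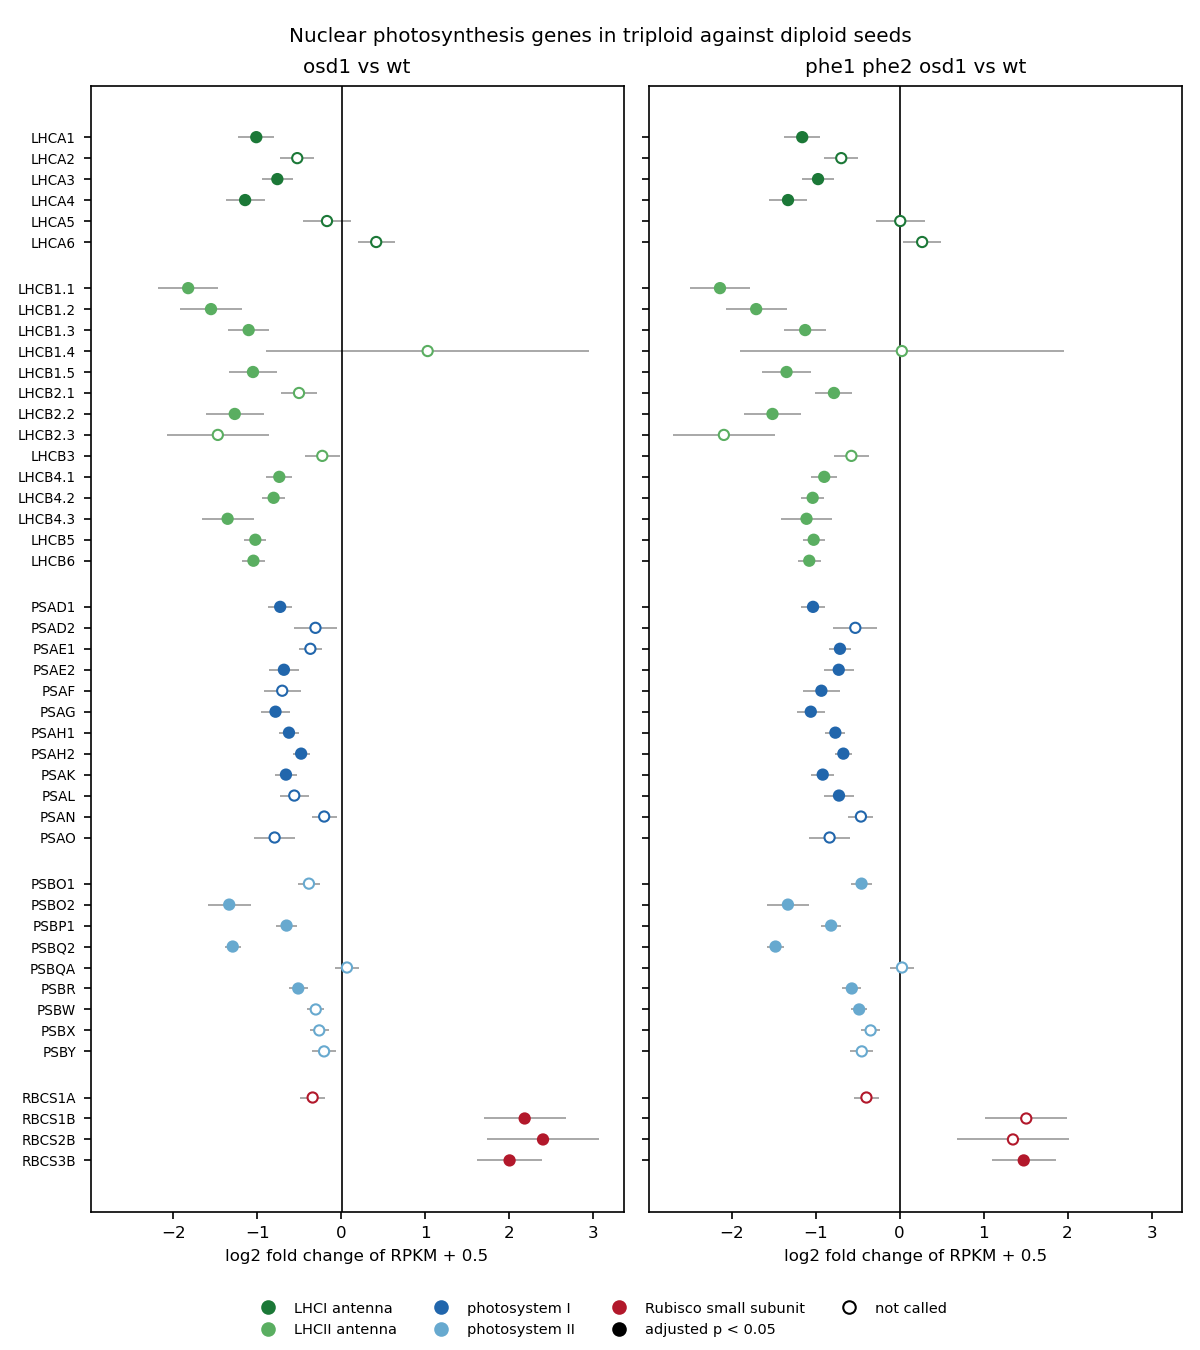
Log2 fold change of RPKM + 0.5 for each of the 45 genes in *osd1* vs. wt (left) and *phe1 phe2 osd1* vs. wt (right), with standard errors from limma. Filled circles passed an adjusted p under 0.05, the vertical line is the median of all genes tested (0.01), and the genes of LHCII reach −1.82 and −2.14 while *RBCS2B* and *RBCS1B* reach 2.40 and 1.51.

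Of the 4 Rubisco small-subunit genes, limma called 3 higher and 0 lower in *osd1* vs. wt, beside 12.6% and 13.4% of all genes tested. In *phe1 phe2 osd1* vs. wt it called 1 higher and 0 lower, beside 12.1% and 12.5%. *RBCS1A* stands alone on chromosome 1, and *RBCS1B*, *RBCS2B* and *RBCS3B* lie within 9 kb of each other on the reverse strand of chromosome 5 (chr5:15376988-15385320). *RBCS1A* (AT1G67090), by far the most abundant copy, had 1457 and 1276 RPKM in *phe1 phe2 osd1* seeds, 1376 and 1458 RPKM in *osd1* seeds and 1760 and 1826 RPKM in wt seeds. All triploid libraries lay below wt, but the difference missed the threshold (log2 fold change −0.34, SE 0.15, limma adjusted p = 0.149 in *osd1* vs. wt).

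The copies of chromosome 5 were higher in level in the triploid seeds. *RBCS3B* (AT5G38410) had 102 and 83.9 RPKM in *phe1 phe2 osd1* seeds, 200 and 89.1 RPKM in *osd1* seeds and 27.6 and 39.3 RPKM in wt seeds. *RBCS1B* (AT5G38430) had 25.96 and 17.5 RPKM in *phe1 phe2 osd1* seeds, 54.1 and 21.7 RPKM in *osd1* seeds and 5.16 and 9.88 RPKM in wt seeds. *RBCS2B* (AT5G38420) had 18.2 and 10.9 RPKM in *phe1 phe2 osd1* seeds, 56.0 and 15.7 RPKM in *osd1* seeds and 3.205 and 8.35 RPKM in wt seeds. For each of these copies every triploid library was above both wt libraries, and *osd1* replicate 1 was the highest.

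In *osd1* vs. wt, *RBCS3B* rose by a log2 fold change of 2.01 (SE 0.38, limma adjusted p = 0.0131), *RBCS1B* by 2.18 (SE 0.49, adjusted p = 0.0224) and *RBCS2B* by 2.40 (SE 0.67, adjusted p = 0.0452). Without *osd1* replicate 1, these values were 1.42, 1.54 and 1.5, and *RBCS2B* was no longer called (limma adjusted p = 0.107). *RBCS2B* also lost its call without *phe1 phe2 osd1* replicate 1 or 2, which enter the fit through the shared spread (limma adjusted p = 0.0738 and 0.0732). Without wt replicate 1 or 2, none of the copies was called, with log2 fold changes of 1.75 to 3.03. In *phe1 phe2 osd1* vs. wt, only *RBCS3B* was called (1.48, SE 0.38, limma adjusted p = 0.0374), beside 1.51 for *RBCS1B* (adjusted p = 0.0718) and 1.35 for *RBCS2B* (adjusted p = 0.196). The call of *RBCS3B* was lost without any 1 of the *phe1 phe2 osd1* or wt libraries (log2 fold change 1.23 to 1.73, limma adjusted p = 0.11 to 0.246), and *RBCS1B* was called without either *osd1* library (adjusted p = 0.0204 and 0.02).

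The copies of chromosome 5 supplied 9.13 and 8.09% of the summed small-subunit RPKM in *phe1 phe2 osd1* seeds, 18.4 and 7.99% in *osd1* seeds and 2.00 and 3.05% in wt seeds. The sum of all 4 copies had a log2 ratio of −0.17 in *osd1* vs. wt and −0.30 in *phe1 phe2 osd1* vs. wt. Identical stretches of 150 bases were shared only between *RBCS1B* and *RBCS3B*, in 4.81 and 7.92% of the positions in their transcripts, so reads can be exchanged between these and not at that length with *RBCS1A*. The coding sequences of *RBCS1A* and the chromosome 5 copies were 87.7 to 90.1% identical, and those of *RBCS1B* and *RBCS2B* 97.3%. Bases 20 to 79 of the 4 coding sequences, from TAIR10.1 on the coding strand, are the stretch with the most differences, with capitals at the 16 positions where the copies differ.
RBCS1A: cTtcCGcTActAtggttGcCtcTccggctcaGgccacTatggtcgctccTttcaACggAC
RBCS1B: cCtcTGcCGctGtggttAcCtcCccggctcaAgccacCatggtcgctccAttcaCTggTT
RBCS2B: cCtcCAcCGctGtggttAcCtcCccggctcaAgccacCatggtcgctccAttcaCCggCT
RBCS3B: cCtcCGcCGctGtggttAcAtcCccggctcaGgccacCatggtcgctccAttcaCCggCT

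The replicates of *osd1* stood apart from each other in these genes. Replicate 1 was above replicate 2 for 42 of the 45 genes (93.3%) in *osd1*, against 51.9% of all genes tested, and the median log2 difference was 0.48. In *phe1 phe2 osd1*, replicate 1 was the higher for 35 of the 45 genes (77.8%), with a median difference of 0.13, and in wt for 17 (37.8%), with a median difference of −0.03. The genes that went the other way in *osd1* were *LHCB4.3*, *PSBX* and *RBCS1A*. Without *osd1* replicate 1, the median log2 fold change of the 45 genes in *osd1* vs. wt was −0.84, and without *osd1* replicate 2 it was −0.47.

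**Figure D4:**
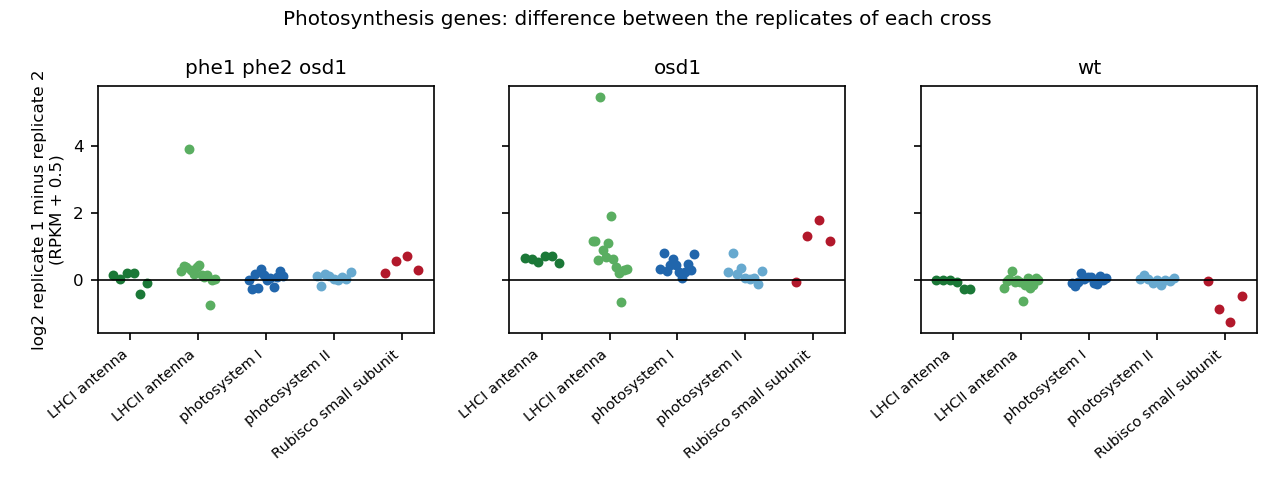
Log2 difference between replicate 1 and replicate 2 (RPKM + 0.5) of each of the 45 genes, by class, in *phe1 phe2 osd1*, *osd1* and wt seeds. In *osd1*, 42 of 45 points lie above 0, and the topmost point in both triploid crosses is *LHCB1.4*.

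Whether the *phe* mutations alter the photosynthesis genes of triploid seeds is asked by *phe1 phe2 osd1* vs. *osd1*. By limma 0 of the 45 genes were called lower and 0 higher, as were 0% and 0% of all genes tested. At an unadjusted p under 0.05, 1 of the 45 genes was lower and 0 higher, against 204 and 350 of all genes tested by limma. That gene was *PSAE1*, a stromal subunit of photosystem I, with 142 and 126 RPKM in *phe1 phe2 osd1* seeds, against 187 and 155 RPKM in *osd1* seeds (log2 fold change −0.34, SE 0.13, limma adjusted p = 1).

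The rank product called 2 of the 45 genes lower, *LHCB1.4* and *RBCS2B*, and 0 higher in *phe1 phe2 osd1* vs. *osd1*, where 4.17% and 4.36% of all genes tested were called. In both genes *osd1* replicate 1 was the highest library. The log2 fold change was below 0 for 42 of the 45 genes, with a median of −0.18 against 0.01 over all genes tested. That direction rested on *osd1* replicate 1, because without it the median was 0.06 and without *osd1* replicate 2 it was −0.40. The standard errors differed between genes, at 0.13 for *LHCB5* (log2 fold change −0.00), 0.25 for *LHCB1.3* (−0.02) and 1.93 for *LHCB1.4* (−1.002). A small standard error did not ensure a call. *PHE1* itself had a log2 fold change of −1.90 (SE 0.13, limma adjusted p = 0.0952) and *PHE2* of −1.28 (SE 0.13, adjusted p = 0.418). Changes of that size in the 45 genes could therefore have gone uncalled.

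The other steps of photosynthesis were described from lists of genes outside the 45. Their counts in *osd1* vs. wt stand beside 13.4% of all genes tested called lower and 12.6% called higher by limma. Of 13 tested genes of other photosystem proteins, 3 were lower and 0 higher in *osd1* vs. wt by limma, led by *ELIP2*, a light-stress relative of the antenna proteins, with 110 and 147 RPKM in *phe1 phe2 osd1* seeds, 89.9 and 129 RPKM in *osd1* seeds and 335 and 333 RPKM in wt seeds. Of 13 genes of electron transport and ATP synthase, 5 were lower and 1 higher. The ferredoxin gene *FD1* had 177 and 198 RPKM in *phe1 phe2 osd1* seeds, 171 and 195 RPKM in *osd1* seeds and 358 and 371 RPKM in wt seeds (log2 fold change −0.998, SE 0.12, limma adjusted p = 0.00267 in *osd1* vs. wt). The more abundant *FD2* was not called in *osd1* vs. wt (−0.51, limma adjusted p = 0.0679). The 1 gene that rose in *osd1* was *LFNR2*, one of the ferredoxin-NADP reductases, which is named because it stood alone.

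Of 14 Calvin cycle genes, 6 were lower and 0 higher in *osd1* vs. wt by limma. *RPE*, for ribulose-phosphate epimerase, had 76.8 and 67.2 RPKM in *phe1 phe2 osd1* seeds, 70.4 and 71.4 RPKM in *osd1* seeds and 158 and 156 RPKM in wt seeds. *TKL1*, a transketolase and the most abundant of this list, fell by 0.69 on the log2 scale (limma adjusted p = 0.0252). Of 15 tested chlorophyll synthesis genes, 7 were lower and 0 higher, led by the reductase gene *DVR* (log2 fold change −0.79, limma adjusted p = 0.00667), and *CRD1*, a cyclase subunit, had −0.92 (adjusted p = 0.0132).

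Of 8 tested regulators of photosynthesis genes, 0 were called by limma in *osd1* vs. wt or in *phe1 phe2 osd1* vs. wt. In both comparisons all triploid libraries lay below wt for 7 of the 8 regulators (87.5%), beside 33.5% and 34.5% of all genes tested. At an unadjusted limma p under 0.05, *PIF3*, a phytochrome-interacting repressor, was lower in both comparisons (log2 fold change −0.75 in *osd1* vs. wt and −0.84 in *phe1 phe2 osd1* vs. wt) and *GLK1*, an activator of photosynthesis genes, in *phe1 phe2 osd1* vs. wt (−0.66), while the rank product called *GNC* lower in *phe1 phe2 osd1* vs. wt and no other regulator in either. Of all 20051 genes tested, 4021 and 3858 were lower at that unadjusted limma p. *GUN1*, a plastid protein of signalling to the nucleus and the most abundant of the list, had a log2 fold change of −0.24 (limma adjusted p = 0.459). Of 7 genes for the insertion of antenna proteins and the assembly of Rubisco, 2 were lower and 0 higher, *CPSRP54* and *CPFTSY*, both of the chloroplast signal recognition pathway. *CPN60A1*, a chaperonin subunit and the most abundant of that list, had 169 and 147 RPKM in *phe1 phe2 osd1* seeds, 168 and 144 RPKM in *osd1* seeds and 145 and 138 RPKM in wt seeds and was not called. The 7 plastid-encoded partners looked for, such as the Rubisco large subunit, had no row in the expression table and were not analysed here.

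**Figure D5:**
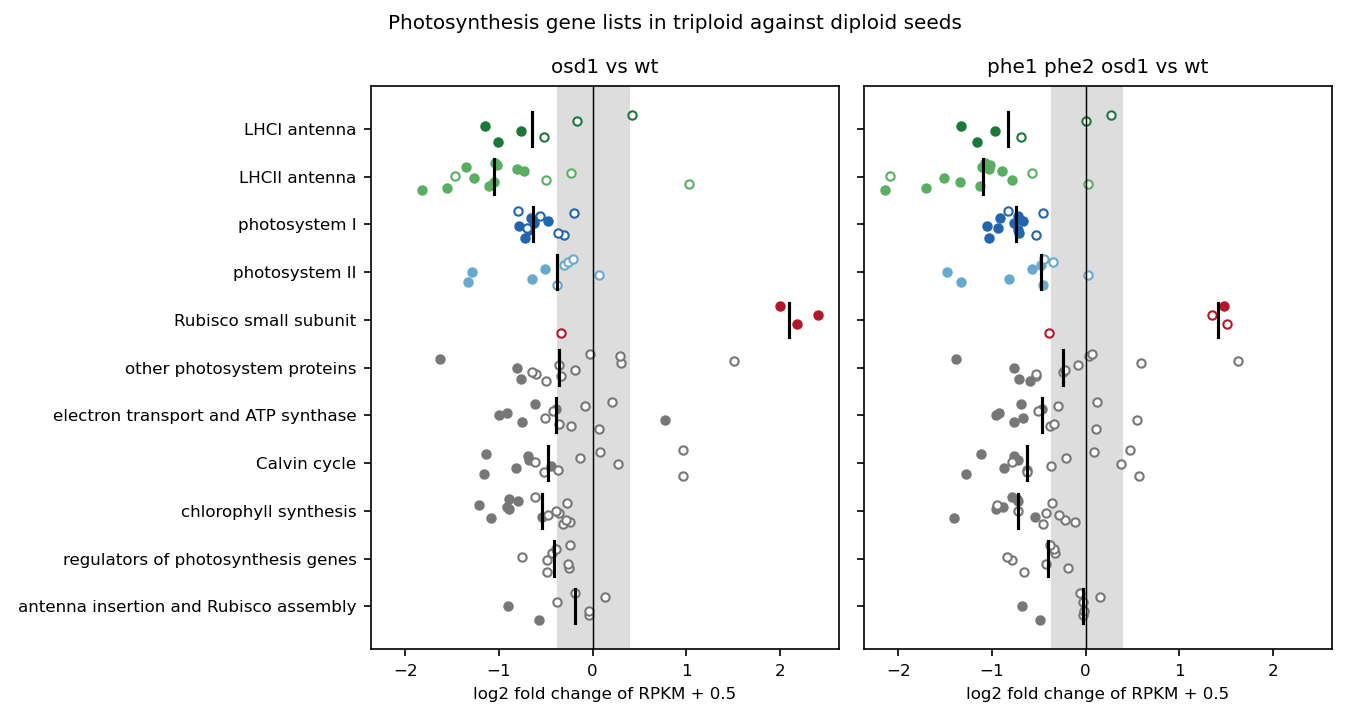
Log2 fold change of RPKM + 0.5 of each gene in the classes of the 45 genes (coloured) and in the other photosynthesis lists (grey) in *osd1* vs. wt (left) and *phe1 phe2 osd1* vs. wt (right). Filled points passed an adjusted p under 0.05 by limma, short bars are medians (LHCII −1.05 and −1.09) and the grey band spans the interquartile range of all genes tested, −0.36 to 0.39 in both panels.

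Markers of the seed tissues differed between the crosses as well, with more embryo markers called lower than higher in triploid seeds and more seed coat and endosperm markers called higher than lower. The summed RPKM of 16 embryo markers was 192 to 216 in *phe1 phe2 osd1* seeds, 158 to 227 in *osd1* seeds and 442 in both wt libraries. Of 15 that were tested, 5 were lower and 1 higher in *osd1* vs. wt and 6 lower and 0 higher in *phe1 phe2 osd1* vs. wt by limma. Over all genes tested, 13.4% were lower and 12.6% higher in *osd1* vs. wt, and 12.5% and 12.1% in *phe1 phe2 osd1* vs. wt. The most abundant, *LEC1*, had 99.8 and 74.4 RPKM in *phe1 phe2 osd1* seeds, 47.2 and 110 RPKM in *osd1* seeds and 195 and 190 RPKM in wt seeds, so *osd1* replicate 1, the library with more photosynthesis transcripts, had less *LEC1* than replicate 2. The embryo marker sum of *osd1* was 158 RPKM in replicate 1 and 227 RPKM in replicate 2, a difference that lay mostly in *LEC1* itself. The median embryo marker had 1.84 and 2.02 RPKM in these libraries. *WOX9*, with the lowest adjusted p, had a log2 fold change of −2.58 in *osd1* vs. wt (limma adjusted p = 0.000402).

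Of 10 seed coat markers, 8 were higher and 0 lower in *osd1* vs. wt by limma, beside 12.6% and 13.4% of all genes tested. In *phe1 phe2 osd1* vs. wt, 7 were higher and 0 lower, beside 12.1% and 12.5%. The libraries of both triploid crosses lay below wt for *MUM4*, and those of *phe1 phe2 osd1* for *GL2*, but limma called neither. The sum of the 10 markers was 1855 to 2168 RPKM in *phe1 phe2 osd1* seeds, 1828 to 2439 in *osd1* seeds and 1733 to 1891 in wt seeds. Of 8 endosperm markers, 4 were higher (*AGL62*, *MINI3*, *MEA* and *FWA*) and 1 lower (*ZOU*) in both comparisons with wt. Their sums were 73.0 to 94.0 RPKM in *phe1 phe2 osd1* seeds, 75.1 to 111 RPKM in *osd1* seeds and 41.5 to 46.6 RPKM in wt seeds. The study lists *AGL62*, *MINI3*, *MEA* and *ZOU*, and also *IKU2* and *YUC10* of this list, as PHE1 targets. Regulation by PHE1 and the amount of endosperm cannot be told apart in these markers. Among 9 markers of the silique wall, which is green, *FUL*, *IND* and *CRC* were under 0.5 RPKM in every library, and *CRC* was at 0 throughout. The sums of these markers were 334 to 411 RPKM in *phe1 phe2 osd1* seeds, 304 to 403 in *osd1* seeds and 288 to 323 in wt seeds. They came almost wholly from the 6 tested markers. Whether those are expressed only in the wall was not tested, so the sums do not measure wall tissue. Of the 6, *FIL* and *YAB3* were lower and *SHP1* higher in *osd1* vs. wt (33.3% and 16.7%), beside 13.4% and 12.6% of all genes tested. The other marker sums differed between the *osd1* replicates too. In replicates 1 and 2 they were 1828 and 2439 RPKM for seed coat, 111 and 75.1 RPKM for endosperm and 304 and 403 RPKM for silique wall markers. The part of embryo stage, tissue proportions and silique wall in the photosynthesis values was not tested.

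PHE1 binding had been mapped in 2 DAP siliques of a *PHE1::PHE1-GFP* line by precipitating the tagged protein with its chromatin and sequencing the DNA, in 2 replicates. Each region shared by both replicates was assigned only to the annotated gene with the nearest start, not to other genes nearby. A gene was counted where the centre of a region assigned to it lay between 1500 bp upstream and 500 bp downstream of its start. This held for 2 of the 45 genes (4.44%), *RBCS1A* and *PSBY*, against 6.19% of the 26719 genes in the table with a position. The regions lay at chr1:25049531-25049827 for *RBCS1A*, centred 12 bp upstream of the start, and at chr1:25395273-25395478 for *PSBY*, centred 126 bp upstream. *PSBY* had 194 and 165 RPKM in *phe1 phe2 osd1* seeds, 232 and 194 RPKM in *osd1* seeds and 248 and 240 RPKM in wt seeds. Neither gene was called in any comparison by limma. With the peaks of replicate 2 alone, *LHCB1.3* and *LHCB2.1* were added, and 11.8% of genes in the table were counted. The parts of both shared regions that lie upstream of the gene are printed as the sequence PHE1 was found at, from TAIR10.1 on the reverse strand, which is the strand of both genes (chr1:25049668-25049827 and chr1:25395273-25395478). The study found PHE1 motifs that resemble the CArG-box, which has CC and GG around a run of A or T. An exact CArG-box had 0 matches in either whole region. With any bases between CC and GG at the same spacing, the *RBCS1A* region had 1 match, outside the printed part, and the *PSBY* region 0. Neither stretch holds a match to the motifs of light-regulated genes named next.
RBCS1A: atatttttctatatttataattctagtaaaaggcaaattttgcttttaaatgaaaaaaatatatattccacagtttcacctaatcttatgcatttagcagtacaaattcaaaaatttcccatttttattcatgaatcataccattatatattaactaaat
PSBY: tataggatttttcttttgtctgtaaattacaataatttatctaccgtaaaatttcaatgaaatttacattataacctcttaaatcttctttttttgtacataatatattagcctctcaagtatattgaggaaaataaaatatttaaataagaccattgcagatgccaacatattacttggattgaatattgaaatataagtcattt

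Promoters of light-regulated genes are known for the G-box CACGTG, the I-box GATAAG and CCAATC, which holds a CCAAT core. In the 300 bases upstream of the annotated start, searched on both strands, a G-box was found in 9 of the 45 genes (20%), against 7.18% of 26718 promoters of the same length. An I-box was found in 10 (22.2%), against 14.5%, and CCAATC in 12 (26.7%), against 12.1%. CCAATC was in 3 of 6 LHCI genes and 7 of 14 LHCII genes and in 0 of 4 small-subunit genes. Annotated starts can lie upstream of the main start of transcription, and a match is a description of the letters.

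The 150 bases upstream of 3 genes are printed, with matches in capitals, because these hold motifs in genes that moved in opposite directions. *RBCS2B*, which was higher in *osd1*, has a G-box between I-boxes. *LHCB6*, which was lower, has a G-box and an I-box, and *LHCB1.3*, also lower, has CCAATC. All are 5′ to 3′ on the strand of the gene in TAIR10.1, at chr5:15382072-15382221 (reverse), chr1:5447881-5448030 (reverse) and chr1:10477735-10477884 (forward).
RBCS2B: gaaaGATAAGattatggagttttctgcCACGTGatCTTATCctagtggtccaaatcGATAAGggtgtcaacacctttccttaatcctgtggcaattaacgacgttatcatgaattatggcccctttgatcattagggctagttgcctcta
LHCB6: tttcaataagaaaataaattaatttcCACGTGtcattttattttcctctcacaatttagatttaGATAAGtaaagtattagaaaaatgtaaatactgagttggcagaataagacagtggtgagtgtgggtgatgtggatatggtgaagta
LHCB1.3: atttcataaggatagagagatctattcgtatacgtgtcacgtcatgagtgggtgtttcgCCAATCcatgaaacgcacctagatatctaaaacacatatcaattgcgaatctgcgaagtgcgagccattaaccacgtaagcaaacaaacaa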

How the data were processed

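Seeds of 3 crosses at 6 DAP were sequenced as 150-base reads, with 2 libraries each. The authors mapped the reads to TAIR10 with TopHat2 2.1.0, reporting 1 place per read, and the deposited values are RPKM computed with GFOLD, with no further scaling between libraries stated. The deposited peak lists hold start and end positions that the authors called with MACS2 2.1.1 after mapping with Bowtie 1.2.2, per replicate, with no height. Sample columns that matched no sample numbered 0.

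A gene was tested if 1 or more crosses had a mean of 0.5 RPKM or above. Log2 fold changes are on the log2(RPKM + 0.5) scale, which understates the change of low genes, and were fitted for all 3 crosses together in limma 3.58.1 (R 4.3.3) with a variance trend and Benjamini-Hochberg adjustment over all genes tested. With 2 against 2 libraries, the smallest p of an exact two-sided permutation test is 0.3333, and that test was left out. The rank product was coded in Python 3.11.15 with numpy 2.4.6 over 4 replicate pairs, where 0 was replaced by 0.0001 and 100 permutations were drawn. Both tests were run on simulated data in which every gene had the same spread and the libraries varied independently. How they perform with the unequal spread of these data was not tested. Peaks of the 2 replicates had to overlap by at least 1 bp.

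The files give no counts. Depth was estimated from the spacing of low RPKM values, 40.0 to 43.8% of which were whole reads (within 0.05 of a whole number) at the estimated depth, so no count test was run and the counting error of single values is not given. The study's methods call the replicates biological and state that the seeds of several siliques were pooled.

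Gene positions and names come from the RefSeq annotation of TAIR10.1, which held 26719 of the 27206 IDs, and coding sequences were aligned with MAFFT 7.526. The genes given with every library are, in each class, the 2 most abundant, those with the highest and lowest log2 fold change in *osd1* vs. wt and the copies of LHCB1, LHCB2 and the small subunit, and from other lists the gene with the lowest adjusted p and the most abundant one. The genes and lists were chosen with earlier results of these data known. Alternatives covered the pseudocount, the filter, the scaling, the crosses in the fit, the replicate number, each library left out and the peak overlap. The histone samples of endosperm were not analysed here.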

Additional observations from a re-analysis of the deposited data

How the results depend on the processing

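Over all alternatives run, the median log2 fold change of the 45 genes ranged from −0.84 to −0.47 in *osd1* vs. wt and from −0.86 to −0.76 in *phe1 phe2 osd1* vs. wt. In *phe1 phe2 osd1* vs. *osd1* it ranged from −0.40 to 0.06, so its sign changed. There limma called 0 of the 45 genes under each alternative that kept all libraries. These moves were smaller than the spread between replicates. That spread comes from the same replicates, so runs without 1 library could hardly exceed it. Counts of limma calls moved more. With no filter, which tests 27206 genes and changes the trend of the variance, 9 genes were lower and 0 higher in *osd1* vs. wt and 14 lower and 0 higher in *phe1 phe2 osd1* vs. wt, while 7.25% and 6.47% of all genes were called lower. Leaving out 1 library gave 0 to 3 higher and 1 to 31 lower in *osd1* vs. wt and 0 to 2 higher and 2 to 36 lower in *phe1 phe2 osd1* vs. wt, where each cross left with 1 library was assumed to vary like the others. A fit without the cross not compared gave 2 higher in *phe1 phe2 osd1* vs. wt. By rank product, *osd1* vs. wt had 9 lower and 3 higher with a pseudocount of 0.5, 12 lower and 3 higher with quantile normalization, and 0 to 6 lower and 0 to 4 higher without 1 library. For *phe1 phe2 osd1* vs. wt these were 16 lower and 3 higher, 15 lower and 3 higher, and 2 to 5 lower and 0 higher, with 5 lower under no filter. For *phe1 phe2 osd1* vs. *osd1* they were 4 lower and 1 higher under both, and 0 to 7 lower and 0 higher without 1 library, with 0 lower under no filter. The shares of all genes tested under these rank product alternatives are not given here. With Benjamini-Hochberg adjustment the rank product called 0 of the 45 genes in each comparison. The cause of these changes was not tested. The replicate number as a block gave 25 lower and 2 higher in *osd1* vs. wt, where 13.6% of all genes tested were called lower. In *phe1 phe2 osd1* vs. wt it gave 32 lower and 0 higher, where 12.4% were called lower, and in *phe1 phe2 osd1* vs. *osd1* it gave 0. Deviations of same-numbered libraries over all genes tested correlated at −0.00 (*osd1* and wt), −0.01 (*phe1 phe2 osd1* and wt) and 0.17 (*phe1 phe2 osd1* and *osd1*). Replicate 1 was the higher for 42 of the 45 genes in *osd1*, 35 in *phe1 phe2 osd1* and 17 in wt. The labels give only a replicate number, and a batch shared by same-numbered libraries was not tested. PHE1 regions of replicate 2 alone were assigned to 4 of the 45 genes. Sums of gene copies, recomputed without each library as alternatives chosen after seeing the data, kept within the spread between replicates, which such runs could hardly exceed.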

Other observations

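Genes of photorespiration, which recycles the product of Rubisco's reaction with oxygen, were looked at after the values had been seen. Of 12 genes, 3 were lower and 0 higher in *osd1* vs. wt by limma, and 4 lower and 0 higher in *phe1 phe2 osd1* vs. wt, shares of 25 and 33.3% beside 13.4 and 12.5% of all genes tested. The median log2 fold changes were −0.35 and −0.49. *AGT*, a peroxisomal aminotransferase, had the lowest adjusted p in *osd1* vs. wt, with 37.9 and 29.2 RPKM in *phe1 phe2 osd1* seeds, 44.2 and 31.1 RPKM in *osd1* seeds and 92.4 and 103 RPKM in wt seeds (log2 fold change −1.38, limma adjusted p = 0.00549 in *osd1* vs. wt). *GLDT*, the most abundant of the list, had 79.5 and 68.3 RPKM in *phe1 phe2 osd1* seeds, 78.4 and 73.9 RPKM in *osd1* seeds and 60.02 and 69.0 RPKM in wt seeds, and was not called (log2 fold change 0.24, limma adjusted p = 0.222).

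*RCA*, for Rubisco activase, which frees the active site of Rubisco, was chosen after its values were seen. It had 144 and 112 RPKM in *phe1 phe2 osd1* seeds, 226 and 124 RPKM in *osd1* seeds and 77.9 and 93.9 RPKM in wt seeds. Every triploid library lay above wt and *osd1* replicate 1 was the highest, the order also seen in *RBCS1B*, *RBCS2B* and *RBCS3B*, but limma did not call the difference (log2 fold change 0.97, SE 0.29, adjusted p = 0.0579 in *osd1* vs. wt).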
